A study of Mus musculus with 2 samples.

Results

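The nuclear genes for the subunits of oxidative phosphorylation were read as UMI counts (molecular barcodes that let every captured transcript be counted once) in single cells of the developing mouse lacrimal gland, the gland that secretes the watery part of tears. Members were all features whose symbol starts with Nduf followed by a, b, c, s or v, with Cox4 to Cox8 followed by a letter, with Uqcr or with Atp5, plus Sdha, Sdhb, Sdhc and Sdhd, without pseudogene symbols. The rule found 92 of the 27775 features. Of these, 36 encode complex I subunits, 8 are complex I assembly factors or a related gene, 4 belong to complex II, 8 to complex III, 20 to complex IV and 16 to complex V, the ATP synthase. Over both libraries, 86 members had at least 30 UMIs, 2 had fewer (Cox7a1 and Atp5g2), and 4 had none (Cox6a2, Cox7b2, Cox8b and Cox8c).

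The glands came from wild-type CD1 mice, an outbred strain, with embryos at day 16 of gestation (E16) and pups at day 4 after birth (P4). Glands were pooled, so no value belongs to a single animal. They were loosened to single cells with Liberase TM and DNaseI, and made into 1 droplet library per stage. With 1 library per stage there is no replicate, so no p-value is given. Intervals are exact 95% intervals of the counts and cover counting error only, and a stage difference cannot be told apart from a difference between the libraries.

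Barcodes with at least 200 detected genes were kept, 259 of 437 at E16 and 406 of 687 at P4, with medians of 5802 and 3767 UMIs. No barcode sequence was shared by the libraries. Cells were grouped by clustering without the 92 members and named from marker genes. The E16 and P4 libraries held 98 and 177 mesenchyme-like cells, 87 and 98 epithelial-like cells, 16 and 9 smooth muscle-like cells, 10 and 22 endothelial-like cells, 2 and 47 macrophage-like cells, and 25 and 12 erythroid-like cells. A P4-only epithelial-like cluster of 28 cells was led by the secretory genes Dcpp1, Dcpp2 and Dcpp3, which with Smgc made up 23.7% of all P4 epithelial-like UMIs. All 16 epithelial markers had UMIs in the epithelial-like cells of both libraries. The 13 features of the mitochondrial genome had 0 UMIs in both libraries, so the subunits encoded there were not measured.

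Complexes I to IV form the electron transport chain of the inner mitochondrial membrane. Complexes I and II take electrons from NADH and succinate, complex III passes them to cytochrome c, and complex IV hands them to oxygen. Complexes I, III and IV pump protons, and complex V uses the proton gradient to make ATP. Several complex IV subunits and the ATP synthase c subunit are encoded by more than 1 gene, with forms typical of heart and muscle, testis, lung or cells short of oxygen. Secretory epithelium spends ATP on ion transport and protein secretion.

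Members made up 3.08% of kept UMIs at E16 and 2.87% at P4. Epithelial-like cells had the highest share of the large classes. The median cell gave 4.21% of its UMIs to members at E16 and 4.14% at P4, against 2.92% and 2.82% in mesenchyme-like cells. At P4 this difference was smaller in deeper cells. Under 2000 UMIs the medians were 4.89% (34 epithelial-like cells) and 2.58% (14 mesenchyme-like cells). From 5000 to below 10000 UMIs they were 3.58% (16 cells) and 2.93% (65 cells), with summed shares of 3.07% and 2.93%. Smooth muscle-like cells had summed shares of 3.75% and 3.80%, and endothelial-like cells 3.05% and 3.27%. P4 macrophage-like cells had 2.28% and P4 T or innate lymphoid-like cells 2.70%. Erythroid-like cells gave 0.236% and 0.357%, while haemoglobin took 93.6% and 91.0% of their UMIs. Without the genes above 1% of a class's UMIs, the erythroid-like shares were 3.49% and 3.81%. In epithelial-like cells the sum over cells was 4.0% (3.95 to 4.04) at E16 and 3.11% (3.07 to 3.15) at P4, although the medians of the cells were close. The Dcpp-led cluster summed to 1.63%, yet its median cell gave 4.10%, and without it the summed P4 to E16 ratio was 1.01 in place of 0.778.

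**Figure D1:**
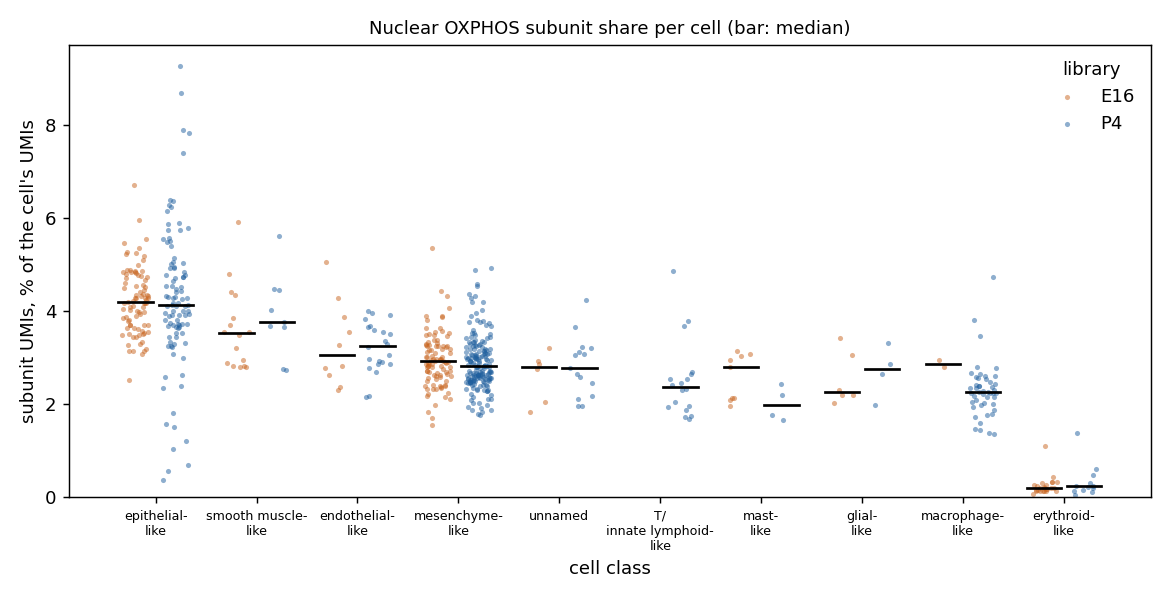
Share of each kept cell's UMIs that came from the 92 members (vertical axis, percent) by cell class (horizontal axis) and library (colour). Each point is 1 cell and each bar the median. Epithelial-like medians of 4.21% and 4.14% stand above the mesenchyme-like 2.92% and 2.82%, and erythroid-like cells lie near 0.

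The makeup of the member UMIs by complex differed between epithelium and mesenchyme in the same way at both stages. Complexes III and V took a larger part of the member UMIs in epithelial-like cells, and complexes I and IV a larger part in mesenchyme-like cells. This comparison uses shares within the members, so it does not depend on how a cell's total is scaled. It was chosen after the values were seen.

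Complex III supplied 12.2% (11.8 to 12.6) of the epithelial-like member UMIs at E16 and 11.5% (11.1 to 11.9) at P4. In mesenchyme-like cells it supplied 9.14% (8.73 to 9.56) and 8.97% (8.61 to 9.34). Complex V supplied 27.7% and 28.2% in epithelial-like cells against 23.7% and 23.3% in mesenchyme-like cells. Complex I supplied 30.3% and 32.0% against 34.2% and 35.9%, and complex IV 26% and 24.7% against 29.6% and 28.4%. None of these 4 pairs of intervals overlapped at either stage. Complex II stayed between 2.52% and 3.0% in these classes.

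Within the classes, complex III kept the separation in every group of at least 5 cells, and complexes I, IV and V taken alone did not. Over the 6 groups of epithelial-like cells (3 clusters per library with at least 5 cells), complex III held 11.3% to 13.1% of the member UMIs, and over the 8 groups of mesenchyme-like cells 8.20% to 9.34%. Complexes III and V together held 38.0% to 40.5% and 29.7% to 34.8%, so these groups did not overlap either. Complex V alone overlapped, at 25.2% to 28.8% and 21.3% to 25.5%. So did complex I, at 29.7% to 33.4% and 31.9% to 38.1%, and complex IV, at 24.0% to 26.9% and 25.3% to 31.3%.

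The smaller classes fell on both sides. P4 macrophage-like cells had 9.23% (8.25 to 10.3) of member UMIs in complex III and 22.7% (21.3 to 24.2) in complex V. E16 mast-like cells, with 615 member UMIs, had 14.1% (11.5 to 17.2) in complex III and 29.8% (26.2 to 33.5) in complex V. Complex III held 10.5% and 11.1% in endothelial-like cells of E16 and P4, 11.7% in P4 T or innate lymphoid-like cells, and 7.35% (6.43 to 8.36) at E16 but 12.2% (10.3 to 14.2) at P4 in smooth muscle-like cells.

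Levels per class are given as counts per 1000000 UMIs of the class (CPM). Each transcript is tagged once near its 3' end, so a level is not divided by gene length. At E16 the summed mesenchyme-like to epithelial-like ratio was 0.553 (0.521 to 0.587) for complex III, 0.629 (0.606 to 0.653) for complex V and 0.624 (0.555 to 0.701) for complex II. It was 0.834 (0.807 to 0.863) for complex I and 0.840 (0.811 to 0.871) for complex IV. At P4 the ratios were 0.731 for complex III, 0.774 for complex V and 0.836 for complex II, with 1.05 for complex I and 1.08 for complex IV. With genes above 1% of the UMIs left out of the totals, the P4 ratios were 0.575, 0.609 and 0.658 for complexes III, V and II and 0.826 and 0.846 for complexes I and IV, close to those at E16. The direction of the summed level depends on the reference. Cytosolic ribosomal protein genes were also higher in epithelial-like cells, at 21.9% and 16.5% of UMIs against 13.3% and 13%. Per ribosomal protein UMI, mesenchyme-like cells had 1.37 and 1.33 times the complex I level of epithelial-like cells, 1.38 and 1.36 times for complex IV, 0.909 and 0.927 times for complex III, and 1.03 and 0.982 times for complex V.

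**Figure D2:**
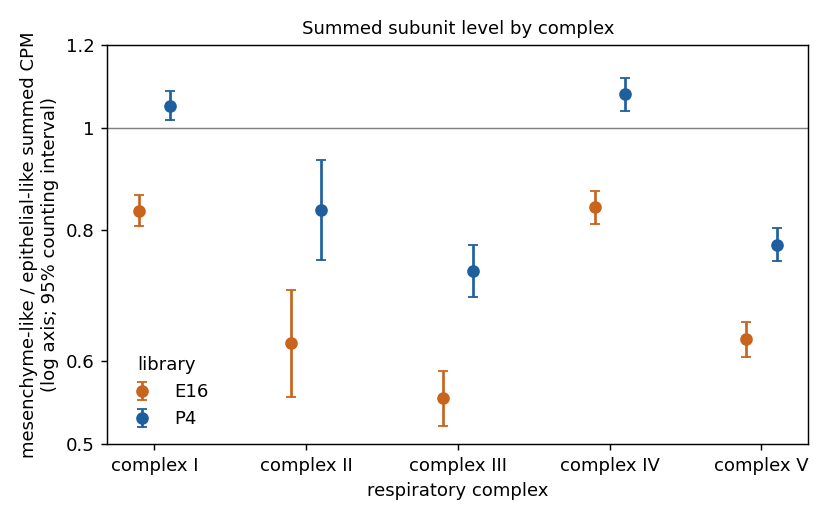
Ratio of summed CPM in mesenchyme-like over epithelial-like cells (vertical log axis) for each complex (horizontal axis) at E16 and P4, with 95% counting intervals. At both stages complexes III and V lie below complexes I and IV, at E16 with 0.553 and 0.629 against 0.834 and 0.840.

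Single members were compared by log2 ratios relative to the median of all genes with at least 30 UMIs over the 2 classes. The median log2 ratio of all such genes was 0.06 at E16 and 0.36 at P4. Members had a median of -0.45 at E16 and -0.41 at P4. At least 1.5-fold lower in mesenchyme-like cells were 32 of 83 members at E16, where 27.6% of all 5629 tested genes were, and 30 of 81 at P4, where 29.1% of 5376 were. At least 1.5-fold higher were 3 members at E16 (28.9% of all genes) and 6 at P4 (30.7%). The lower members were uneven by complex, with 7 of 8 tested members of complex III and 8 of 14 of complex V at E16, against 10 of 36 of complex I and 2 of 14 of complex IV. At P4 the counts were 5 of 8, 8 of 14, 9 of 36 and 3 of 14. At both stages 21 of 81 members were lower by this measure, among them 5 of complex III and 8 of complex V, with 15.9% of all genes. Only Ndufv3 and Ndufa4l2 were higher at both, with 19.7% of all genes.

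At least 2-fold lower at both stages were 6 of 81 members, where 7.19% of all genes were, a share near the background. They are named after their values were seen, and 3 of the 6 were complex III genes. Uqcrfs1 (ENSMUSG00000038462, chr13:30540308-30545362, minus strand) encodes the Rieske iron-sulphur protein that moves electrons inside complex III. It stood at 469 CPM in epithelial-like and 207 CPM in mesenchyme-like cells at E16, and at 585 and 200 CPM at P4, with mesenchyme to epithelium ratios of 0.441 (0.356 to 0.543) and 0.341 (0.283 to 0.410). Uqcrc1 and Uqcrc2 encode the core proteins of the matrix side of complex III. Uqcrc1 (chr9:108936633-108949623, plus strand) had 536 against 252 CPM at E16 and 528 against 275 CPM at P4, and Uqcrc2 (chr7:120635176-120659524, plus strand) 316 against 132 CPM and 220 against 102 CPM. All 3 genes were picked for being lower in mesenchyme-like cells at both stages, so this direction follows from the choice.

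The other 3 came from complexes IV and V and from assembly of complex I. Cox5a (chr9:57521274-57532426, plus strand), a subunit of complex IV, had 531 against 222 CPM at E16 and 419 against 218 CPM at P4. Atp5b (chr10:128083273-128090391, plus strand) encodes the catalytic beta subunit of ATP synthase. Its level was 1780 CPM in epithelial-like and 755 CPM in mesenchyme-like cells at E16, and 1096 and 659 CPM at P4. Ndufaf4, a complex I assembly factor, rested on few counts, with 44 against 22 UMIs at E16 and 23 against 13 at P4. Relative to ribosomal protein genes, more members were higher than lower in mesenchyme-like cells. At least 1.5-fold higher were 21 of 83 at E16 and 30 of 81 at P4, with member medians of log2 0.33 and 0.30. At least 1.5-fold lower were 2 at E16 (Ndufs6 and Ndufaf5) and 6 at P4. Those 6 were Uqcrc1, Uqcrc2, Uqcrfs1, Cox5a, Ndufaf4 and Ndufa9. Ribosomal protein genes were lower in mesenchyme-like cells, so this scale raises every gene there by the same factor within a stage. The excess of higher over lower members thus follows in part from the scale. The share of all genes past this fold was not computed on it, so these counts do not set the members apart from other genes.

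Ndufv3, a complex I flavoprotein gene (chr17:31520115-31531331, plus strand), ran the other way. It had 293 CPM in mesenchyme-like and 180 CPM in epithelial-like cells at E16, a ratio of 1.62 (1.28 to 2.07), and 320 and 164 CPM at P4, a ratio of 1.95 (1.57 to 2.44). In P4 endothelial-like cells it had 8 UMIs, 0.296 times the mesenchyme-like level (0.127 to 0.593). Ndufs6, which encodes a zinc-binding complex I subunit, differed between the classes mainly at E16, with 196 CPM in mesenchyme-like against 485 CPM in epithelial-like cells, and 208 against 220 CPM at P4. Ndufa7, a further complex I subunit, also named after its values were seen, differed mainly at P4, with 370 against 346 CPM at E16 and 405 against 164 CPM at P4.

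**Figure D3:**
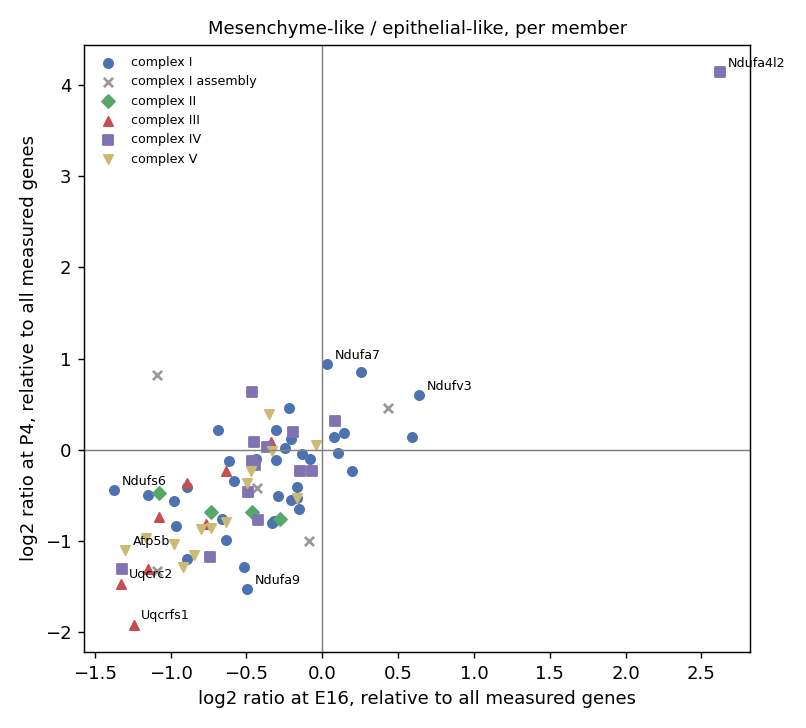
Log2 ratio of mesenchyme-like over epithelial-like cells for the 81 members with at least 30 UMIs at both stages, at E16 (horizontal axis) and P4 (vertical axis), each relative to the median of all measured genes. Most members lie in the lower left, with Uqcrfs1 the lowest at P4, and Ndufa4l2 lies far to the upper right, its P4 value computed with a floor of 3 UMIs for the epithelial 0.

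Isoform pairs differed widely between classes. Ndufa4 encodes a small subunit of complex IV, and Ndufa4l2 encodes its relative, known as a gene raised in low oxygen. Cox4i1 and Cox4i2 encode alternative forms of the regulatory subunit 4 of complex IV, Cox4i2 being the form known from lung and from smooth muscle. Ndufa4l2 (ENSMUSG00000040280) lies at chr10:127514967-127517154 on the plus strand and Cox4i2 (ENSMUSG00000009876) at chr2:152754173-152765037 on the plus strand.

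Ndufa4l2 was highest in smooth muscle-like cells, with 94 UMIs (1217 CPM) at E16 and 34 UMIs (1122 CPM) at P4. There it made up 61.4% (53.2 to 69.2) and 70.8% (55.9 to 83.0) of the UMIs of Ndufa4 and Ndufa4l2. Mesenchyme-like cells followed with 157 UMIs (246 CPM, 19.5% of the pair) and 75 UMIs (92.4 CPM, 9.42%). Endothelial-like cells had 12 UMIs at each stage, 16.2% and 11.8% of the pair, of which 1 cell held 11 at E16 and 1 cell 9 at P4. The intervals of endothelial-like and mesenchyme-like cells overlapped at both stages. Epithelial-like cells had 24 UMIs of 699 at E16 (3.43%) and 0 of 598 at P4, which allows up to 0.502% at 3 counts. P4 macrophage-like cells had 0 of 49 and P4 T or innate lymphoid-like cells 0 of 47.

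Cox4i2 was also highest in smooth muscle-like cells, at lower counts. Smooth muscle-like cells had 30 UMIs (388 CPM) at E16 and 15 UMIs (495 CPM) at P4, or 23.8% (16.7 to 32.2) and 21.7% (12.7 to 33.3) of the pair with Cox4i1. Mesenchyme-like cells had 26 and 18 UMIs, 3.27% and 1.48% of the pair. Epithelial-like cells had 0 of 1016 UMIs at E16 and 0 of 1162 at P4. The 9 endothelial-like UMIs at E16 all came from 1 cell. Cox4i1 itself, the most abundant member, stood at 1204 to 1782 CPM in mesenchyme-like, epithelial-like and smooth muscle-like cells of both stages.

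By cell, Ndufa4l2 was seen in 12 of 16 and 7 of 9 smooth muscle-like cells. The median was 523 CPM (0 to 4966) at E16 and 1047 CPM (0 to 19580) at P4. The highest value came from a P4 cell of 715 UMIs in all, which held 14 of the class's 34 Ndufa4l2 UMIs. Cox4i2 was seen in 8 and 5 of the smooth muscle-like cells. Cells with both numbered 7 and 5, so most cells with Cox4i2 also had Ndufa4l2. A single cell held 18 of the 30 Cox4i2 UMIs at E16, and 1 held 7 of the 15 at P4. For comparison, 43 of 98 E16 mesenchyme-like cells (43.9%, median 6110.5 UMIs) had a Ndufa4l2 UMI and 13 had one of Cox4i2, and at P4 38 and 12 of 177 did. Of E16 epithelial-like cells, 12.6% had a Ndufa4l2 UMI and 0 of 87 had one of Cox4i2. Those epithelial-like cells had a median of 4897 UMIs, and the E16 smooth muscle-like cells 4932.5. The clusters were built without the members, yet Cox4i2 and Ndufa4l2 were among the 10 genes that led the smooth muscle-like cluster.

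The smooth muscle-like class rests on 25 cells and its P4 part depends on the clustering. Its defining genes Acta2 and Rgs5, a pericyte marker, had 671 and 42 UMIs at E16 and 146 and 15 at P4, while Myh11 had 30 and 1. Of the 7 pericyte markers 7 and 6 had UMIs there, and of the 16 epithelial markers 3 and 1. With each library clustered alone, 12 of the 16 E16 cells stayed smooth muscle-like, with 58.9% Ndufa4l2 and 10.8% Cox4i2 in the pairs. All 9 P4 cells then fell among mesenchyme-like cells. The 18 P4 cells that took the smooth muscle-like name under that setting had 483 Acta2 UMIs but also 65 of Krt14 and 47 of Epcam, keratin and adhesion genes of epithelium, and had 0 of 68 Ndufa4l2 and 0 of 107 Cox4i2 UMIs in the pairs. With cells classed one by one from their markers, the 23 smooth muscle-like E16 cells had 35.6% Ndufa4l2 and 4.26% Cox4i2 in the pairs, with 45 Krt14 and 48 Epcam UMIs. The 20 P4 cells had 1 UMI of each gene (1.64% and 1.12%), with 54 and 22. Of the 9 P4 smooth muscle-like cells 1 was among them. By the same markers, 2 E16 cells and 1 P4 cell of the smooth muscle-like cluster were pericyte-like. They had 21 and 14 UMIs of Ndufa4l2, 0 of Ndufa4 and 0 of Acta2. How pericytes and smooth muscle cells share the cluster's Ndufa4l2 was not tested.

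Cells were also grouped by a UMI of Rgs5, a grouping chosen after the data were seen. It is not independent of the clusters, since 12 of the 17 E16 and 5 of the 11 P4 cells were smooth muscle-like. The 17 E16 cells with an Rgs5 UMI had 45.3% (37.8 to 53.1) Ndufa4l2 in the pair against 12.9% (11.4 to 14.6) in the other cells, and the 11 P4 cells 25.4% (18.1 to 33.9) against 5.79% (4.67 to 7.07). For Cox4i2 these shares were 19.0% against 1.18% at E16, and 3.36% (1.10 to 7.66) against 1.0% (0.670 to 1.43) at P4, where the intervals overlapped. The 5 E16 Rgs5 cells outside the smooth muscle-like cluster had 38.9% (27.6 to 51.1) Ndufa4l2 and 13.7% (8.02 to 21.3) Cox4i2. Of these 5 cells only 2 had a UMI of Ndufa4l2 and 2 one of Cox4i2, and the intervals do not cover the spread between cells. The 6 such P4 cells had 9 Ndufa4l2 to 81 Ndufa4 UMIs, an interval of 4.68% to 18.1% that overlaps the other cells, and 0.909% Cox4i2. The higher Ndufa4l2 share of P4 Rgs5 cells thus rests on the 5 of them in the smooth muscle-like cluster. Among those 5 P4 cells, a single cell of 715 UMIs in all held 14 UMIs of Ndufa4l2, and another held 0.

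**Figure D4:**
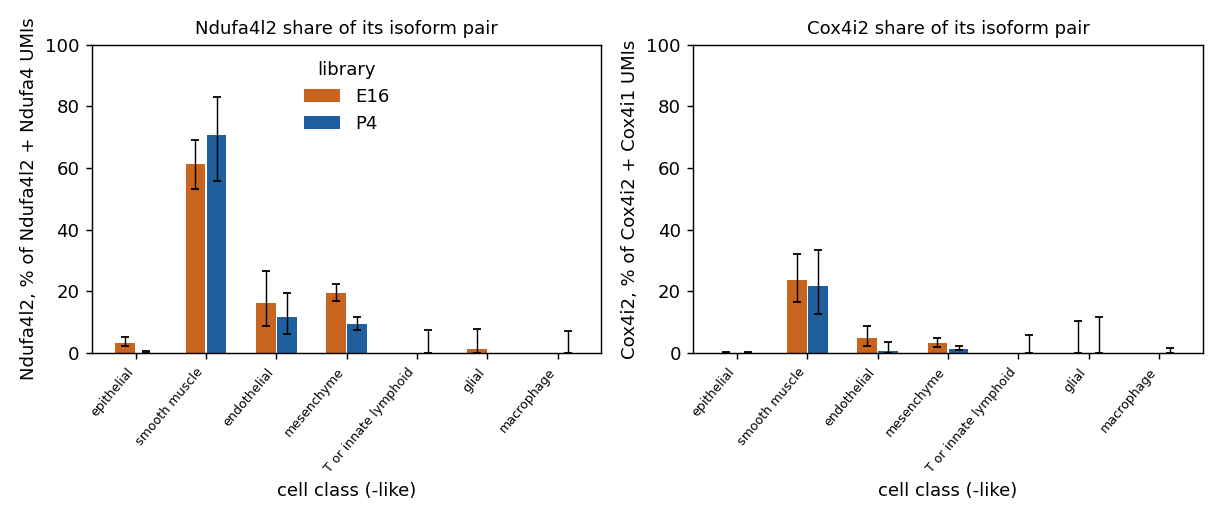
Ndufa4l2 as a percentage of Ndufa4 and Ndufa4l2 UMIs (left) and Cox4i2 as a percentage of Cox4i1 and Cox4i2 UMIs (right) by class and library, drawn where a pair had at least 30 UMIs. Bars are class sums and lines exact 95% intervals. Smooth muscle-like cells reach 61.4% and 70.8% on the left and 23.8% and 21.7% on the right, and no other class drawn exceeds 19.5% or 4.79%.

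Within mesenchyme, Ndufa4l2 was unevenly spread, and the clusters that made up the class differed between the stages. The cluster led by A230065H16Rik had 54 cells at E16 and 7 at P4, and the 2 clusters led by Mfap5 had 5 cells in all at E16 and 74 at P4. At P4 the cluster led by Kera, Dcn and Lum held 64 of the 75 UMIs at 213 CPM, while the 2 clusters led by Mfap5 and Clec3b had 3 and 5 UMIs at 16 and 24.7 CPM. The P4 cluster led by Dcn, Dlk1 and Crabp1 had 0 UMIs in 14 cells, while at E16 the same cluster had 68 UMIs at 347 CPM in 23 cells. That E16 group also had the most Cox4i2 of the mesenchyme-like groups, 18 UMIs at 91.9 CPM, and a pericyte list of 158 CPM against 45.2 and 51.1 CPM in the other E16 groups. The part of pericytes in it was not tested. In the Kera-led cluster the level was 213 CPM at P4 against 136 CPM at E16, but with 9 UMIs at E16. No interval was computed for this difference. A single E16 mesenchyme-like cell held 33 of the 157 UMIs.

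The remaining isoform groups were dominated by 1 form. For subunits 6a, 7b and 8, every UMI came from the widely expressed genes Cox6a1, Cox7b and Cox8a, and the heart, muscle or testis forms Cox6a2, Cox7b2, Cox8b and Cox8c had 0. Cox7a1, the muscle form of subunit 7a, gave 8 of 935 UMIs at E16 and 17 of 918 at P4, the rest being Cox7a2. Cox6b2, known as a testis form, gave 6.73% (5.38 to 8.29) of the Cox6b pair at E16 and 3.57% (2.58 to 4.79) at P4. It was proportionally highest in erythroid-like cells, with 8 of 18 and 6 of 9 UMIs, spread over 6 and 4 cells.

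Subunit c of ATP synthase, the ring that turns with proton flow, is encoded by Atp5g1, Atp5g2 and Atp5g3, whose mature proteins are the same. Atp5g1 supplied 69.0% (66.8 to 71.2) of their UMIs at E16 and 76.4% (74.5 to 78.3) at P4, and Atp5g3 30.2% and 22.9%. The shift was seen in both large classes. In mesenchyme-like cells Atp5g3 went from 28.5% (24.8 to 32.5) to 19.2% (16.4 to 22.2), and in epithelial-like cells from 30.2% (27.3 to 33.3) to 24.0% (21.4 to 26.8). Atp5g2 had 13 UMIs in each library.

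Between the stages, the summed level of the members was close in mesenchyme-like cells and depended on the scale in epithelial-like cells. In mesenchyme-like cells the summed P4 to E16 ratio was 0.987 (0.968 to 1.006). In epithelial-like cells it was 0.778 (0.764 to 0.792), but it was 1.02 without genes above 1% of the UMIs, to 1.01 without the Dcpp-led cluster or with each cell weighted equally, and to 1.03 relative to ribosomal protein genes. Relative to all measured genes, whose median log2 ratios were -0.53 and -0.18, the member medians were 0.12 in epithelial-like and 0.16 in mesenchyme-like cells. The members also spread less than all genes, with a standard deviation across genes of 0.57 against 1.26 in epithelial-like and 0.35 against 0.94 in mesenchyme-like cells. Low-count genes add to the spread of all genes, and their part in this was not tested.

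In epithelial-like cells 13 of 83 members were at least 1.5-fold higher at P4 and 9 at least 1.5-fold lower, where 24.3% and 23.1% of all 5007 tested genes were. In mesenchyme-like cells the counts were 5 and 4 of 83, where 19.6% and 20.0% of 5711 were. The members' shares past this fold were thus below the background in both directions and both classes. At least 2-fold, 4 members were higher and 4 lower in epithelial-like cells (13.8% and 11.9% of all genes), and 0 higher and 1 lower in mesenchyme-like cells (9.42% and 9.67%), the 1 being Ndufa4l2. The 9 lower members in epithelial-like cells became 5 without 1 barcode called as a doublet in the E16 library.

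Cox7a2l, whose product joins complexes III and IV into supercomplexes, was among the 6 members furthest up at P4 in both classes. It went from 181 UMIs (289 CPM) to 337 UMIs (457 CPM) in epithelial-like cells, a ratio of 1.58 (1.32 to 1.91), and from 115 UMIs (180 CPM) to 212 UMIs (261 CPM) in mesenchyme-like cells, a ratio of 1.45 (1.15 to 1.84). Ndufb11, an X-linked complex I subunit gene, also had higher levels at P4, with 384 and 546 CPM in epithelial-like cells and 459 and 600 CPM in mesenchyme-like cells. Cox7b, an X-linked complex IV subunit gene (chrX:106015700-106022450, plus strand), was lower at P4 in both. It went from 644 to 288 CPM in epithelial-like cells, a ratio of 0.447 (0.376 to 0.529), and from 587 to 424 CPM in mesenchyme-like cells, a ratio of 0.722 (0.622 to 0.838). Relative to all genes its log2 change was -0.64 in epithelial-like and -0.29 in mesenchyme-like cells.

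Among the other members furthest up in epithelial-like cells, the assembly factor Ndufaf3 had 18 and 48 UMIs, Uqcrfs1 had 469 and 585 CPM, Ndufb9 518 and 643 CPM, and Ndufs7 295 and 353 CPM. Those furthest down were Cox6b2 with 39 and 10 UMIs, the assembly factor Ndufaf6 with 25 and 7 UMIs, Ndufs6 with 485 and 220 CPM, Atp5k with 327 and 151 CPM and Cox7c with 1140 and 582 CPM. In mesenchyme-like cells the members furthest up were Ndufa3 with 224 and 335 CPM, Ndufa11 with 457 and 595 CPM, Atp5c1 with 431 and 544 CPM and Cox4i1 with 1204 and 1477 CPM. The member furthest down was Ndufa4l2, from 246 to 92.4 CPM, a ratio of 0.376 (0.282 to 0.498). In the cluster led by A230065H16Rik it went from 218 to 69.7 CPM, and in that led by Dcn, Dlk1 and Crabp1 from 347 to 0. The Kera-led cluster had a higher CPM at P4, but on 9 E16 UMIs and without an interval. The clusters that made up the class changed between the stages as given above. Cox8a had 924 and 701 CPM, Atp5j 833 and 644 CPM, Atp5g3 251 and 171 CPM and Ndufa9 121 and 75.1 CPM.

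**Figure D5:**
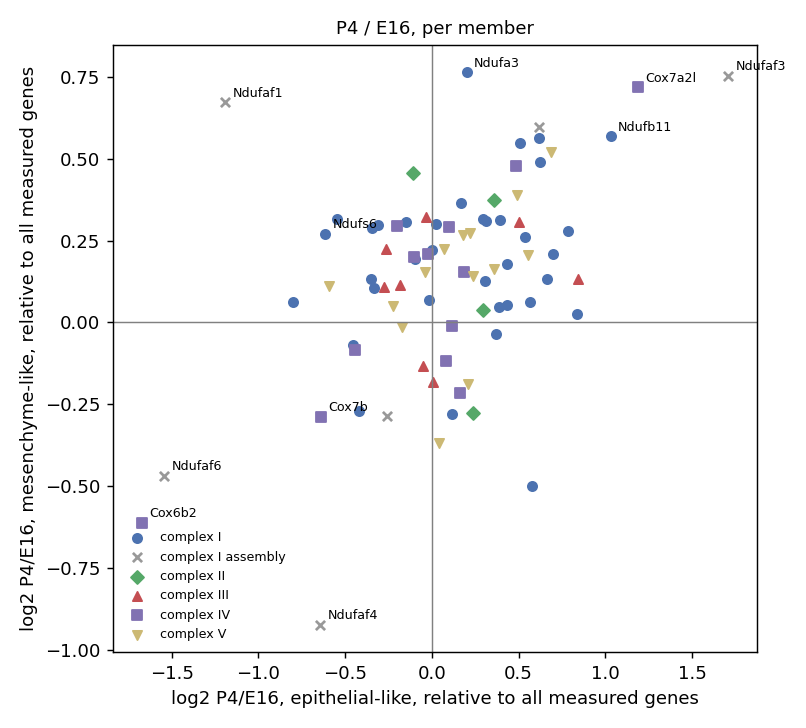
Log2 P4 over E16 ratio in epithelial-like (horizontal axis) and mesenchyme-like cells (vertical axis) for the 81 members with at least 30 UMIs in both comparisons, each relative to the median of all measured genes. Cox7a2l and Ndufb11 lie in the upper right and Cox7b and Cox6b2 in the lower left. The points farthest from 0 include assembly factors with few UMIs.

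Genes that work beside the members were read from lists. The oxygen-responsive list (Bnip3, Slc2a1, Pdk1 and others, without Ndufa4l2) was lower at P4 in epithelial-like and mesenchyme-like cells. So were the Ndufa4l2 sums of these 2 classes, but not that of endothelial-like cells. At least 1.5-fold lower were 7 of 8 tested genes in epithelial-like cells (median log2 -1.24 relative to all genes) and 5 of 7 in mesenchyme-like cells (median -0.88). Of all tested genes 23.1% and 20.0% were. In the Kera-led cluster the list went from 858 to 419 CPM, while Ndufa4l2 went from 136 (9 UMIs) to 213 CPM. Smooth muscle-like cells, highest in Ndufa4l2, had list ratios to mesenchyme-like cells of 0.587 (0.411 to 0.817) at E16 and 1.24 (0.738 to 1.96) at P4. A link between Ndufa4l2 and the list was not tested. Bnip3, a mitochondrial protein of the low-oxygen response, had 74 and 22 UMIs in epithelial-like and 77 and 36 in mesenchyme-like cells. For the citrate cycle and pyruvate entry, 11 of 20 tested genes were at least 1.5-fold lower in mesenchyme-like than in epithelial-like cells at E16 and 9 of 19 at P4. For large-subunit proteins of the mitochondrial ribosome the counts were 21 of 46 and 18 of 45. Of all tested genes 27.6% at E16 and 29.1% at P4 were lower by this measure. These medians, -0.77 and -0.46 for the citrate cycle and -0.55 and -0.43 for the mitochondrial ribosome, lay on the same side as the -0.45 and -0.41 of the members.

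Against mesenchyme-like cells of the same stage, smooth muscle-like cells had a summed member ratio of 1.27 (1.22 to 1.32) at E16 and 1.31 (1.23 to 1.39) at P4. At least 1.5-fold higher were 26 of 79 members at E16 (21.3% of all genes) and 22 of 79 at P4 (27.5%), and lower were 4 (26.3%) and 5 (26.7%). Their cells gave 27.7 and 30.8 member UMIs per 100 ribosomal protein UMIs, against 22.1 and 22.3 in mesenchyme-like cells. P4 macrophage-like cells had a ratio of 0.784 (0.755 to 0.814), with 13 of 78 members higher (30.6%) and 11 lower (31.8%). Their Ndufa4 level was 353 against 888 CPM, a ratio of 0.397 (0.291 to 0.531), and their Cox5a level 375 against 218 CPM, a ratio of 1.72 (1.24 to 2.35). P4 endothelial-like cells had a ratio of 1.12 (1.08 to 1.17), with 16 of 78 higher (26.3%) and 8 lower (29.7%), and the complex III ratio was the largest of their 4 well-counted complexes at 1.39 (1.23 to 1.57).

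In erythroid-like cells Atp5b gave 28 of 414 member UMIs at E16 and 21 of 247 at P4, or 6.76% (4.54 to 9.63) and 8.50% (5.34 to 12.7), against 3.48% and 2.83% in the other kept cells. Barcodes under 200 genes, where haemoglobin took a median of 95.9% and 95.7% of the UMIs, gave 9.30% and 9.68%. Uqcrh, the complex III hinge protein gene, gave 60 and 64 erythroid-like UMIs, but 1 cell held 47 of them at E16 and 1 held 61 at P4.

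Promoter sequence was read for 76 of the 92 members from RefSeq promoters of GRCm38.p6 (82 windows of the 250 bases before a gene's start). The binding motif of nuclear respiratory factor NRF1, a palindrome whose letters are the longest run of capitals in each printed window, stood in 5 of these windows (6.10%), against 0.782% of all 32851 windows and 1.07% of those of protein-coding genes. It reads the same on both strands. CCGGAAG, an ETS-family motif, searched on both strands, stood in 13 member windows (15.9%) against 6.91% and 8.98%. GGGCGG, an Sp-family motif, stood in 36.6% against 32.7% and 42.6%, and ACGTG, the core of the oxygen-response element, in 23.2% against 16.6% and 17.8%. The 4 windows with the NRF1 motif that belong to members with at least 30 UMIs are shown because these members differed in what they did. Ndufa11 was among the genes furthest up in mesenchyme-like cells, Atp5k among those furthest down in epithelial-like cells, Ndufaf4 lower in mesenchyme-like than in epithelial-like cells at both stages, and Cox6a1 was the only expressed form of its subunit, at 952 against 861 CPM at E16 and 1027 against 639 CPM at P4. Capitals mark the NRF1 motif and, in Cox6a1 only, also CCGGAAG on the other strand. The windows of Uqcrc1, Uqcrfs1, Cox5a and Atp5b held neither motif.
Ndufa11, chr17:56717512-56717761, plus strand: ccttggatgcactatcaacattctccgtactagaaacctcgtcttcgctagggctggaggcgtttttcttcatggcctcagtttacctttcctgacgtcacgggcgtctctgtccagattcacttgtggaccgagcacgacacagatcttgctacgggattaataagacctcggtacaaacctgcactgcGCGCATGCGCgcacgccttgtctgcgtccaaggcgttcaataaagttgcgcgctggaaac
Ndufaf4, chr4:24897833-24898082, plus strand: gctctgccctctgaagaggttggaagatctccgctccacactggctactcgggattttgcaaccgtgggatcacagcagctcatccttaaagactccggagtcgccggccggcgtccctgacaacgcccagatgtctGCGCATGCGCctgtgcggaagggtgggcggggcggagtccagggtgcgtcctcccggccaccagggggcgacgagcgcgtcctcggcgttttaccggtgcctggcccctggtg
Cox6a1, chr5:115348959-115349208, minus strand: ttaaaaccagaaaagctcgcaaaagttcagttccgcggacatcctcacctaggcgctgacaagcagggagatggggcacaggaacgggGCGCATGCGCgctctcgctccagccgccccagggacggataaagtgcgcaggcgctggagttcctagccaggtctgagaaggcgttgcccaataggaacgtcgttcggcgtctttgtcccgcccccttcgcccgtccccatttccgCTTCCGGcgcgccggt
Atp5k, chr5:108434400-108434649, minus strand: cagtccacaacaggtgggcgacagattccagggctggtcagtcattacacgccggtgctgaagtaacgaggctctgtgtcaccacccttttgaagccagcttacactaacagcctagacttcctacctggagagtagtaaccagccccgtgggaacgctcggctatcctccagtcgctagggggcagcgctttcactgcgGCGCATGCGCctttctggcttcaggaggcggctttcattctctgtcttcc

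Some member counts are uncertain because other genes share their sequence. In the annotation, 25 of 92 members had a run of 60 bases within the last 500 of their transcript that also occurs in another gene's transcript, and 4 had it for at least 50% of such runs: Atp5l (74.4%), Atp5h (57.1%), Atp5o (51.9%) and Ndufs3 (50.6%). Ndufs5, with 39.9% of runs shared with the gene BC002163, had only 25 and 25 epithelial-like UMIs. In addition, 12 members overlapped another annotated gene on the same strand and 32 one on the opposite strand, Ndufa4l2 among them, with Shmt2.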

How the data were processed

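The values are UMI counts per gene and barcode, as the authors deposited them, 1 matrix per stage with 27775 features. Reads were processed with Cell Ranger on mm10, per the submitters' processing notes. Its version, the annotation and the filters on barcodes are not stated in them, and the labels name both Drop-seq and 10X Genomics. Barcodes with at least 200 detected genes were kept (259 and 406 cells, 1711606 and 1975814 UMIs). Both libraries were log-normalised to 10000 UMIs and clustered together with scanpy 1.11.5 (2000 variable genes without the members, 20 components, 15 neighbours, Leiden resolution 1). Clusters were named from marker lists with at least 3 markers detected. Scrublet called 1 doublet at E16 and 0 at P4, so doublets were not removed.

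Counts were summed per class and library and divided by the class total (CPM). Intervals are exact (Poisson for a sum, conditional for a ratio, Clopper-Pearson for a share). A count of 0 was given a floor of 3 UMIs over the class sum. Ratios of single genes were read at 30 or more UMIs over the classes compared. Cell classes were compared within a library, and stages within a class. The ratio calculation was tested on simulated data. Coordinates come from GENCODE M21 (GRCm38) matched by gene identifier, and numpy 2.4.6, scipy 1.17.1 and pandas 2.3.3 were used.

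The genes named are every isoform group, the 2 most abundant members of each complex, the 6 members furthest up and furthest down at P4 in each large class by the bound of the interval nearest to 1, and a few genes of each list. Ndufv3 and Uqcrh were named outside this rule, from their values. Other genes outside it are marked in the text or picked by a count or cut-off given there. Members, lists and comparisons were chosen with earlier results of these data known.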

Additional observations from a re-analysis of the deposited data

Results flagged for a closer look

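For 2 members the P4 to E16 change went opposite ways in epithelial-like and mesenchyme-like cells, relative to all measured genes, and was at least 1.5-fold in one class and at least 1.2-fold the other way in the other. Ndufs6, a complex I subunit, had 304 and 162 epithelial-like UMIs at E16 and P4 and 125 and 169 mesenchyme-like UMIs, and the log2 changes relative to all genes, -0.61 and 0.27, differed by -0.89. A single E16 epithelial-like cell held 41 of the 304 UMIs, and without them the epithelial-like ratio was 0.524 in place of 0.454 and the log2 change -0.41. Ndufaf1, a complex I assembly factor, had 28 and 10 against 14 and 25 UMIs, with log2 changes of -1.19 and 0.67, a difference of -1.87. A single E16 epithelial-like cell held 13 of the 28 UMIs, and without them the epithelial-like ratio was 0.567 in place of 0.304 and the log2 change -0.29. Without those UMIs Ndufs6 no longer met the 1.5-fold cut, and Ndufaf1 met it only through its 14 and 25 mesenchyme-like UMIs. How many of all measured genes meet this rule was not computed, so the count of 2 has no background beside it. With 1 library per stage the differences were not tested.

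Barcodes under 200 genes, which entered no comparison, held 516 member UMIs at E16 and 661 at P4. These were 0.0986% and 0.0897% of their UMIs, and 2.27% and 1.93% after leaving out haemoglobin.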

How the results depend on the processing

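No paired analysis was possible because the labels give no replicate numbers and there was 1 library per stage, which also leaves no replicate to leave out. The summed P4 to E16 ratio of epithelial-like cells (0.778) was 1.02 without genes above 1% of UMIs, 1.01 with equal weight per cell, 0.893 with each library clustered alone, 0.937 with cells classed by markers and 0.945 without the 5 deepest cells. Of the alternatives chosen after seeing the data, leaving out the Dcpp-led cluster gave 1.01 and scaling to ribosomal protein genes 1.03. The mesenchyme-like ratio (0.987) was 0.948 at Leiden resolution 0.5, 0.951 clustered alone, 1.01 by markers and 1.01 relative to ribosomal genes. The mesenchyme-like to epithelial-like ratio at E16 (0.737) was 0.698 with equal cells, 0.777 at resolution 0.5, 0.772 clustered alone, 0.722 without the deepest cells and 1.21 relative to ribosomal genes. At P4 (0.935) it was 0.736 without abundant genes, 0.681 with equal cells, 0.823 clustered alone, 0.779 by markers, 0.751 without the deepest cells, 0.718 without the Dcpp-led cluster and 1.19 relative to ribosomal genes.

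The median log2 stage change relative to all genes was 0.25 with equal cells in epithelial-like cells (0.12 as reported). In mesenchyme-like cells (0.16) it was 0.0735 at 100 or more UMIs, 0.32 with no filter, 0.0669 at resolution 0.5 and 0.0817 clustered alone. Of epithelial-like members, 9 were lower, and this became 3 at 100 or more UMIs, 5 without the called doublet and 4 at 2-fold, while the 13 higher became 4 at 2-fold. In mesenchyme-like cells the 4 lower became 2 at 100 or more UMIs, 2 by markers and 1 at 2-fold, and the 5 higher became 2 at 100 or more UMIs, 14 with no filter, 3 without the deepest cells and 0 at 2-fold. Of 871 recomputed values of named genes, 836 stayed within their interval and 34 left it. The remaining 1 changed sign from a reported change of at least 1.5-fold, Cox4i2 in mesenchyme-like cells at 0.55 by markers. The 836 include the scaling to ribosomal genes, which cannot move these values, and the 2-fold setting held none of them. Sign changes of smaller values were not counted apart. The causes were not tested. The share of complexes III and V in the member UMIs was 38.5% to 40.1% in epithelial-like and 31.9% to 32.9% in mesenchyme-like cells over 13 settings. Settings that change only the class total, the reference or the UMI filter cannot alter this share, so they are no check of it. Classes of under 25 cells and genes of under 30 UMIs are limited by depth.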
